A study of Mus musculus with 4 samples.

Results

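Glypicans and syndecans are the main families of cell-surface heparan sulfate proteoglycans, and all 10 of their genes in the mouse (Gpc1 to Gpc6 and Sdc1 to Sdc4) were followed here in testicular interstitial cells. They were taken by gene symbol from a deposited table of 22802 loci, where each had a row of its own. RNA was sequenced from cells sorted at postnatal day 10 out of the testes of mFLE-Cre;CAG-CAT-EGFP mice (strain C57BL/6J), in which Cre switches on an EGFP reporter. The first group was laminin-positive, the second laminin-negative, and each had 2 libraries. Every cell analysed thus carried both alleles, and the cells in which the Cre is active are not described in the sources used here. The sample labels call both groups EGFP-positive, but the series design calls the laminin-negative cells EGFP-weak, so laminin staining and EGFP level cannot be told apart as the sorted difference. The sources do not say whether libraries of a group came from different animals, and p-values then reflect library spread that may be purely technical.

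Glypicans hang on the outer membrane by a lipid (GPI) anchor, and syndecans cross the membrane with a short cytoplasmic tail. The heparan sulfate chains on both bind growth factors, morphogens and matrix proteins, laminins among them, so these proteins act as coreceptors and as matrix receptors. In the testis, heparan sulfate proteoglycans are known from Sertoli cells, peritubular cells and the basement membrane around the tubules.

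Expression was deposited as FPKM, a level per transcript length and library size, with library totals of 491475 to 548986 FPKM, and each library had 11794 to 12011 loci at or over 1 FPKM. Values were set on the log2(FPKM + 1) scale, which understates differences of genes near or below 1 FPKM, and 12348 loci with at least 1 FPKM in at least 2 libraries were tested with limma. Of these, 26.6% were called higher and 26.3% lower in laminin-positive cells at a Benjamini-Hochberg adjusted p under 0.05, and for 77.2% the libraries of the populations did not overlap. The median log2 difference over all tested loci was 0.01. Scaling all libraries to 1 common FPKM total, with Rn45s left out, moved that median to 0.11 and put 64.1% of all calls on the higher side, where 50.3% were higher on the deposited scale. The labelled interstitial identity was checked on marker genes, of which Tcf21, a transcription factor of interstitial cells, averaged 471 ± 1.60 FPKM in laminin-positive and 335 ± 8.03 FPKM in laminin-negative cells (SD, n = 2 each).

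Of the 10 genes, 9 passed the filter. Gpc1, Gpc2, Sdc1, Sdc2, Sdc3 and Sdc4 were called higher in laminin-positive cells and Gpc3 and Gpc4 lower, while Gpc6 was not called and Gpc5 was below the filter. That is 6 of 9 higher and 2 of 9 lower, beside the 26.6% and 26.3% of all tested loci. The call of Sdc1 was at the threshold, and leaving out any one of the 4 libraries left 5 genes called higher. Libraries of the populations did not overlap for 8 of the 9, beside 77.2% of all tested loci. The median log2 difference of the 9 was 0.70. In these bulk libraries, a larger share of cells that use a gene and more RNA of it in each cell cannot be told apart.

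**Figure D1:**
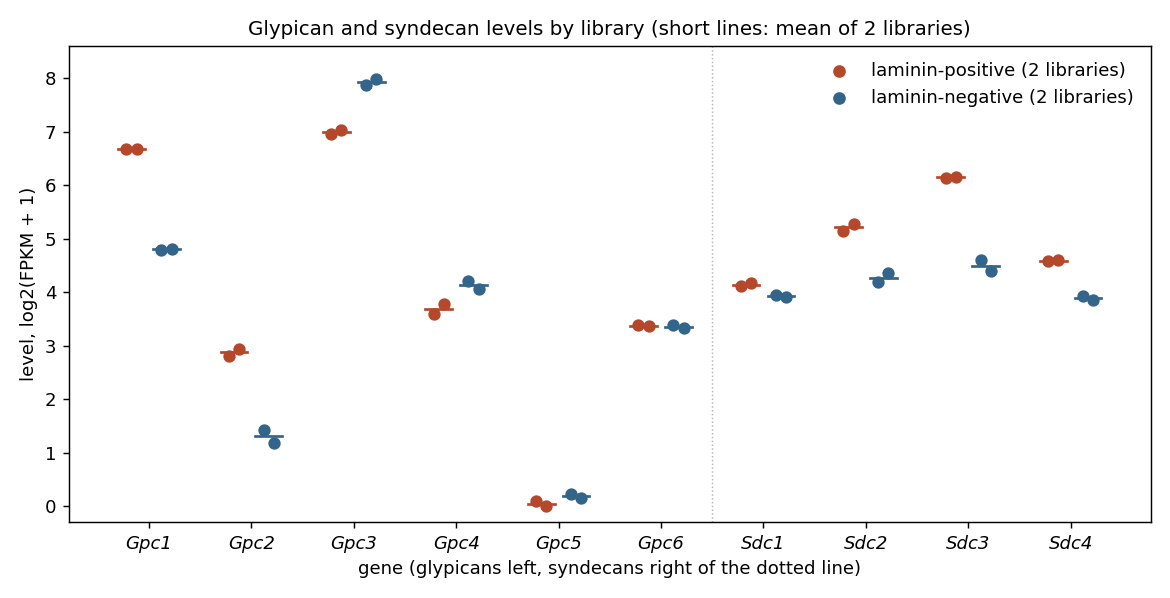
Level of each glypican and syndecan gene in each library, as log2(FPKM + 1), with laminin-positive libraries (red) left of laminin-negative libraries (blue) for each gene and short lines at the mean of 2 libraries. Gpc3 lies highest in both populations, all 4 syndecans and Gpc1 and Gpc2 lie higher in laminin-positive libraries, and the ranges of Gpc6 overlap.

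RefSeq start regions (GRCm38.p6, 250 bases before to 50 after the start) were at hand for 7 of the 10 genes, namely Gpc2, Gpc3, Gpc4, Gpc5, Sdc1, Sdc3 and Sdc4. The 4 printed here are those of Gpc2 and Sdc3, which differed most among the higher genes with an entry, and of Gpc3 and Gpc4, the genes called lower. Each is given 5′ to 3′ on the gene's strand, with GC boxes (GGGCGG on either strand) in capitals. Gpc2 is read from chr5:138279888-138280187 on the minus strand, Sdc3 from chr4:130792287-130792586 on the plus strand, Gpc3 from chrX:52613925-52614224 on the minus strand and Gpc4 from chrX:52164874-52165173 on the minus strand.
Gpc2: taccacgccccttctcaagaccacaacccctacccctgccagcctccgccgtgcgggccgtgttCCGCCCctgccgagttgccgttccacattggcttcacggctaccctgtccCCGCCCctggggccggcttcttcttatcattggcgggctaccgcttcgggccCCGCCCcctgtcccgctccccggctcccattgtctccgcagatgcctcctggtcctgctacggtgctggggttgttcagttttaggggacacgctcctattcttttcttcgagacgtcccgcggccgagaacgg
Sdc3: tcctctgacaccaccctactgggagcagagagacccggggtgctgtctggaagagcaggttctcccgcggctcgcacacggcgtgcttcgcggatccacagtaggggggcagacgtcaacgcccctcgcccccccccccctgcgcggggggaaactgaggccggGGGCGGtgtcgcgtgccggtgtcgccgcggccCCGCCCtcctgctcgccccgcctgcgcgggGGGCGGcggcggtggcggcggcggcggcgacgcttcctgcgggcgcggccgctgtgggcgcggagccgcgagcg
Gpc3: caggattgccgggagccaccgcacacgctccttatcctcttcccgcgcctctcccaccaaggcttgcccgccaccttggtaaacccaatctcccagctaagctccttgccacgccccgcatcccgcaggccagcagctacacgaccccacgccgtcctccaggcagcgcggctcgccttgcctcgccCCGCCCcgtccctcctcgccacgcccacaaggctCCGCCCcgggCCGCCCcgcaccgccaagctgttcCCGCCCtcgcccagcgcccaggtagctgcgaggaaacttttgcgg
Gpc4: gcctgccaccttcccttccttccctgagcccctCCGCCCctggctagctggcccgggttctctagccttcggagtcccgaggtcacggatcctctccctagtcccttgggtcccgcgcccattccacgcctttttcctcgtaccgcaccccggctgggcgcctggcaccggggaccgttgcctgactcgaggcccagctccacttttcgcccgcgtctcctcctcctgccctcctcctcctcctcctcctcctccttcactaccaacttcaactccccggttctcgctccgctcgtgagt

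All 7 windows held at least 1 GC box, as did 35.7% of the 32851 windows in the RefSeq table. Of the higher genes with a window, Gpc2, Sdc1 and Sdc3 had 3 GC boxes each and Sdc4 had 4. Of the lower genes, Gpc3 had 4 and Gpc4 had 1, so the counts overlapped. Gpc1 and Sdc2, also called higher, had no window. The GC content of the 4 printed windows was 65.7% for Gpc2, 77.7% for Sdc3, 70.7% for Gpc3 and 66.7% for Gpc4. The median over all windows was 52.7%. A TATA element (TATAAA, either strand) was found among the 7 in Gpc5 alone, and 13.6% of all windows held it. The element AAGGTCA, which the steroidogenic factor SF-1 (Nr5a1) can bind, was on neither strand of the 7 windows and in 4.7% of all windows. An E-box (CANNTG) stood in the windows of Gpc2 and Sdc1, and in 72.3% of all. These are matches of letters and say nothing of binding.

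Gpc3 was the most abundant of the 10 in both populations and was lower in laminin-positive cells. It encodes a glypican that binds Hedgehog proteins and keeps them from their receptor, and its loss in humans causes an overgrowth syndrome. The gene lies on chromosome X (52272426 to 52613950, GRCm38, minus strand). Laminin-positive libraries had 123 and 129.8 FPKM, against 232 and 253 FPKM in laminin-negative libraries. Every laminin-positive library thus lay below both laminin-negative ones, with means of 126 ± 4.64 and 242 ± 14.6 FPKM (SD, n = 2 each). This was a 1.91-fold lower mean, with a difference of −0.93 in log2(FPKM + 1) (SE 0.08, limma adjusted p = 1.99e-06), and 6.53% of tested loci fell by more. Even so, Gpc3 stood at the 95.4 to 95.7 percentile of tested loci in laminin-positive libraries, and at 97.5 in both laminin-negative ones.

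Gpc4, a glypican studied as a coreceptor of fibroblast growth factors and Wnt proteins, is the neighbour of Gpc3 on chromosome X (52053021 to 52165252, minus strand). Their loci in the deposited table are 107.5 kb apart, with 0 other loci of the table between them. Gpc4 was also lower in laminin-positive cells, at 11.1 and 12.7 FPKM, against 17.5 and 15.7 FPKM in laminin-negative cells. The ranges were apart but close, and the log2 difference was −0.45 (SE 0.10, limma adjusted p = 0.00291). That call was lost when no variance was shared across genes (adjusted p = 0.135). Gpc3 exceeded Gpc4 in FPKM 11.1-fold and 10.2-fold in the laminin-positive libraries, against 13.2-fold and 16.0-fold in the laminin-negative libraries.

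Gpc1 had the largest rise on the log2(FPKM + 1) scale, though the ratio of means was larger for Gpc2. It encodes a widely used coreceptor for fibroblast growth factors and other heparin-binding ligands and lies on chromosome 1 (92831645 to 92860779, plus strand). Laminin-positive libraries had 100.5 and 100.9 FPKM, against 26.7 and 27.1 FPKM in laminin-negative libraries. Replicates differed by less than 1 FPKM, far under the gap between the populations. The mean was 3.74-fold higher, with a difference of 1.87 in log2(FPKM + 1) (SE 0.07, limma adjusted p = 5.00e-09), and 2.49% of tested loci rose by more. Within a library, Gpc3 was 1.23 and 1.29 times the FPKM of Gpc1 in laminin-positive cells, against 8.69 and 9.31 times in laminin-negative cells. In GENCODE M21 Gpc1 shares exon sequence with Ankmy1 on the opposite strand, but Ankmy1 was at 0.107 FPKM or less in every library.

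Gpc2, first described as cerebroglycan of the developing nervous system, was far less abundant. The gene spans 138273655 to 138280005 on chromosome 5 (minus strand). It had 6.03 and 6.69 FPKM in laminin-positive libraries, against 1.69 and 1.27 FPKM in laminin-negative libraries. The populations were well apart, 4.31-fold in the means, though the laminin-negative values lie near the filter. Its log2 difference was 1.58 (SE 0.12, limma adjusted p = 1.60e-06), and with a pseudocount of 0.1 it became 2.05. An annotated protein-coding locus, Gm43720, shares exon sequence with Gpc2 on the same strand and has no row of its own in the table, so part of this signal may belong to it.

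Gpc6 and Gpc5 are neighbours on chromosome 14, with their table loci 400.1 kb apart, and neither was called. Gpc6 (116925315 to 117976544, plus strand), mutated in a human short-limb dysplasia, had 9.48 and 9.28 FPKM in laminin-positive libraries, against 9.45 and 9.003 FPKM in laminin-negative libraries. The ranges overlapped, and the log2 difference was 0.02 with a 95% interval of −0.18 to 0.22 (limma adjusted p = 0.862). Gpc5 (115092215 to 116525179, plus strand), a glypican reported to promote Hedgehog signalling, was listed at 0.0626 and 0 FPKM in laminin-positive libraries, against 0.169 and 0.116 FPKM in laminin-negative libraries. These values are too low to compare, and no fold is given.

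Of the syndecans, Sdc3 was the most abundant and rose most. It is known from nerve and muscle and lies on chromosome 4 (130792537 to 130826319, plus strand). Laminin-positive libraries had 69.4 and 70.2 FPKM, against 23.1 and 20.1 FPKM in laminin-negative libraries. The populations were far apart relative to their replicates, at means of 69.8 ± 0.587 and 21.6 ± 2.14 FPKM (SD, n = 2 each), which is 3.23-fold. The log2 difference was 1.65 (SE 0.08, limma adjusted p = 5.03e-08), and 3.26% of tested loci rose by more. The antisense loci Gm12970 and Gm26716 share exon sequence with Sdc3 and have no rows in the table, and whether the quantification used strand is not stated in the labels or headers.

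Sdc2, the syndecan of fibroblasts and other mesenchymal cells, lies on chromosome 15 (32920723 to 33034935, plus strand). It had 34.5 and 37.9 FPKM in laminin-positive libraries, against 17.2 and 19.5 FPKM in laminin-negative libraries. The libraries did not overlap and the means were 1.97-fold apart, a difference of 0.94 in log2(FPKM + 1) (SE 0.09, limma adjusted p = 6.84e-06). When no variance was shared across genes its adjusted p was 0.0549. Sdc4, which sits in focal adhesions and binds protein kinase C alpha, lies on chromosome 2 (164424247 to 164443887, minus strand). Its values were 22.8 and 23.3 FPKM in laminin-positive libraries, against 14.2 and 13.5 FPKM in laminin-negative libraries. This smaller gap, 1.67-fold, also exceeded the replicate spread, with a difference of 0.70 in log2(FPKM + 1) (SE 0.08, limma adjusted p = 3.66e-05).

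Sdc1, the syndecan typical of epithelia and plasma cells, differed least of the syndecans. The gene is on chromosome 12 (8771323 to 8793715, plus strand). It had 16.2 and 17.1 FPKM in laminin-positive libraries, against 14.3 and 14.0 FPKM in laminin-negative libraries. The libraries were apart, but by only 1.17-fold in the means, and the log2 difference of 0.22 (SE 0.08, 95% interval 0.03 to 0.40) lay at the threshold (limma adjusted p = 0.0499). The call was lost in 10 of 13 alternatives, where adjusted p ranged from 0.0503 to 0.286, and leaving out any of the 4 libraries ended it. Of the epithelial and plasma cell markers, Epcam was also called higher, at 1.21 and 1.22 FPKM in laminin-positive libraries, against 0.548 and 0.344 FPKM in laminin-negative libraries, while Xbp1 was not called and Cdh1, Krt8, Krt18 and Jchain were at 0.167 FPKM or less in every library. Their part in the Sdc1 value was not tested.

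**Figure D2:**
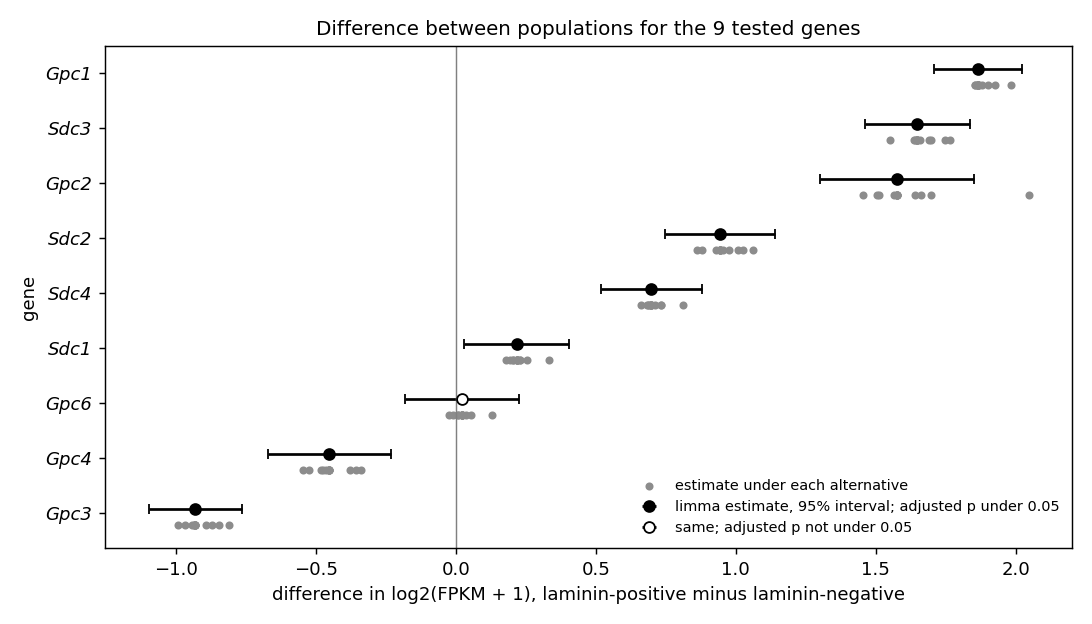
Difference in log2(FPKM + 1) between laminin-positive and laminin-negative cells for the 9 tested genes, with the limma estimate and its unadjusted 95% interval (black, open where the adjusted p was not under 0.05) above the estimates under each alternative (grey). The estimates run from 1.87 for Gpc1 to −0.93 for Gpc3, and none of the 8 called genes changed sign under an alternative.

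The families differed in their totals and in their make-up. FPKM is a level per transcript length, so genes can be summed and shares compared within a library, and a share does not move when a whole library is scaled. The 6 glypicans summed to 250.3 and 259 FPKM in laminin-positive libraries, against 287 and 306 FPKM in laminin-negative libraries. The 4 syndecans summed to 143 and 148 FPKM in laminin-positive libraries, against 68.9 and 67.1 FPKM in laminin-negative libraries. The syndecan total was thus 2.14-fold higher in laminin-positive cells, while the glypican total was lower by a smaller margin. Totals over all loci were also lower in laminin-positive libraries, at 503950.5 and 491474.6 FPKM, against 532323.2 and 548986.1 FPKM in laminin-negative libraries. The family sums were not rescaled to these totals, so the size of the small glypican gap depends on the scale used. With 2 libraries against 2, an exact permutation test cannot go below p = 0.333, so shares and sums are given without a test.

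Gpc3 held 49.2% and 50.03% of the glypican sum in laminin-positive libraries, against 80.7% and 82.6% in laminin-negative libraries. Gpc1 held 40.1% and 38.9% in laminin-positive libraries, against 9.28% and 8.87% in laminin-negative libraries. Laminin-negative cells therefore had a glypican pool made mostly of Gpc3 transcripts, and in laminin-positive cells Gpc1 came close to Gpc3. Of the syndecan sum, Sdc3 held 48.6% and 47.3% in laminin-positive libraries, against 33.6% and 29.98% in laminin-negative libraries. Sdc1 held 11.3% and 11.5% in laminin-positive libraries, against 20.8% and 20.9% in laminin-negative libraries. The share of Sdc2 overlapped, at 24.1% and 25.5% in laminin-positive libraries, against 25.01% and 29.02% in laminin-negative libraries.

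**Figure D3:**
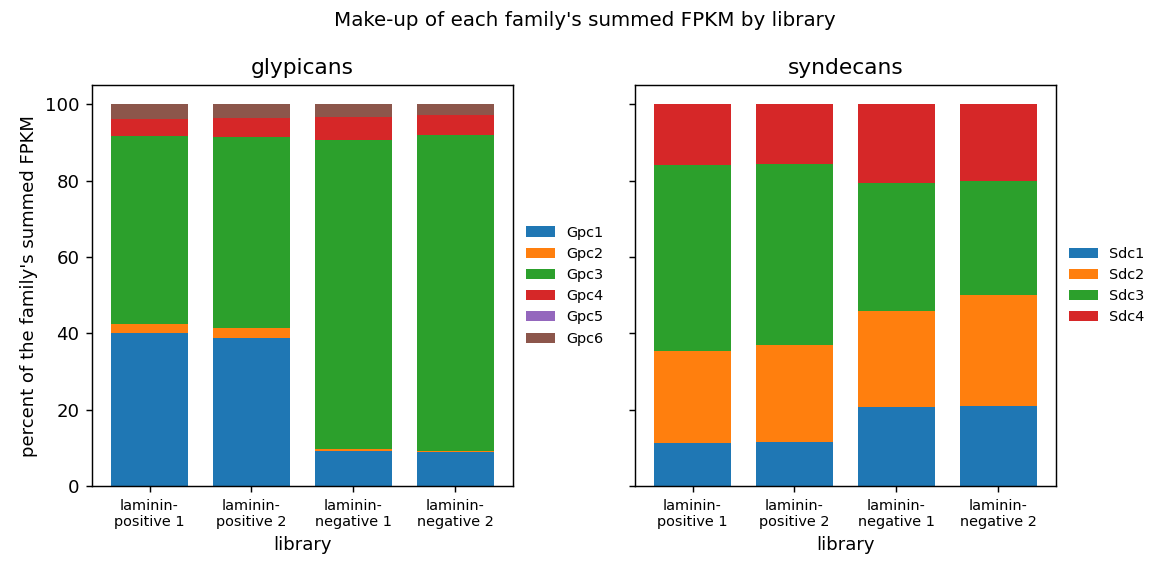
Share of each gene in the summed FPKM of the 6 glypicans (left) and the 4 syndecans (right), in percent, for each laminin-positive library and then each laminin-negative library. Gpc1 takes 38.9% to 40.1% of the glypican sum in laminin-positive libraries against 8.87% to 9.28% in laminin-negative libraries, and Sdc3 47.3% to 48.6% of the syndecan sum against 29.98% to 33.6%.

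Ordered by mean FPKM, laminin-positive cells had Gpc3, Gpc1, Sdc3, Sdc2, Sdc4, Sdc1, Gpc4, Gpc6, Gpc2 and Gpc5, and no neighbours in that order had overlapping ranges. In laminin-negative cells the order began with the same 4 genes, went on with Gpc4, Sdc1 and Sdc4, and ended with Gpc6, Gpc2 and Gpc5. There the ranges of Sdc2 and Gpc4 overlapped, and so did those of Sdc1 and Sdc4. The 3 tested loci nearest to Gpc1 over the 4 libraries, by distance in log2(FPKM + 1), were Hspa2 (0.19), Pdlim7 (0.28) and Dact3 (0.30). Those nearest to Gpc3 were Ifitm3 (0.15), Lamp2 (0.28) and Rnh1 (0.29).

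Marker lists of several cell types were compared between the same populations, and their directions varied by list. Of the smooth muscle and peritubular myoid markers, 6 of 6 were called higher in laminin-positive cells, where they summed to 5345 and 5404 FPKM, against 167 and 154 FPKM in laminin-negative cells. Pericyte markers were called higher in 7 of 7 cases and summed to 335 and 343 FPKM in laminin-positive cells, against 62.7 and 59.9 FPKM in laminin-negative cells. Leydig markers were called lower in 6 of 6 rows. They summed to 207 and 161 FPKM in laminin-positive cells, against 4824 and 4568 FPKM in laminin-negative cells. Most of the laminin-negative sum was the row of Insl3, which also names Jak3. Without that row the Leydig sums were 80.2 and 73.6 FPKM in laminin-positive cells, against 744 and 746 FPKM in laminin-negative cells. Every gene of these 3 lists was thus called in the direction of its list.

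Interstitial mesenchymal markers split, with 2 of 5 called higher and 3 lower, and summed to 2486 and 2406 FPKM in laminin-positive cells, against 3586 and 3433 FPKM in laminin-negative cells. Without Col1a1, the most abundant of them, the sums were 950.2 and 986 FPKM in laminin-positive cells, against 843 and 837 FPKM in laminin-negative cells. Macrophage markers were called higher in 6 of 8 rows, with the other 2 below the filter, and summed to 42.9 and 35.9 FPKM in laminin-positive cells, against 7.81 and 4.59 FPKM in laminin-negative cells. Germ cell markers were called higher in 6 of 8 rows and lower in 1, Kit, and summed to 27.9 and 29.2 FPKM in laminin-positive cells, against 48.4 and 47.7 FPKM in laminin-negative cells. Without Kit, which held most of the laminin-negative sum, the germ cell sums were 25.5 and 27.4 FPKM in laminin-positive cells, against 9.71 and 10.3 FPKM in laminin-negative cells. Among Sertoli markers 3 of 8 were called higher and 1 lower, with sums of 141 and 107 FPKM in laminin-positive cells, against 144 and 149 FPKM in laminin-negative cells. Most of that was Clu, called lower, and without it the Sertoli sums were 42.6 and 29.8 FPKM in laminin-positive cells, against 14.1 and 12.6 FPKM in laminin-negative cells. Of 8 endothelial markers 4 were tested, with 1 called higher and 2 lower. All 8 summed to 21.01 and 19.2 FPKM in laminin-positive cells, against 175 and 182 FPKM in laminin-negative cells. Cdh5 alone had 165 and 173 FPKM in the laminin-negative libraries. Without Cdh5 the endothelial sums were 11.1 and 9.91 FPKM in laminin-positive cells, against 9.92 and 8.87 FPKM in laminin-negative cells. Pecam1 and Kdr stayed under 1 FPKM in every library. Erythroid markers were all below the filter, at sums of 0.108 and 1.12 FPKM in laminin-positive cells, against 0.530 and 0.641 FPKM in laminin-negative cells. Epithelial and plasma cell markers had 1 of 6 called higher (Epcam), with sums of 42.0 and 39.3 FPKM in laminin-positive cells, against 41.7 and 44.4 FPKM in laminin-negative cells, most of it Xbp1. The part of any of these cells in the glypican and syndecan differences was not tested.

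Enzymes and partners of the proteoglycans were taken as 8 lists with 77 genes, of which 59 were tested. In laminin-positive cells 20 were called higher and 23 lower, with a median log2 difference of −0.07 where that of all tested loci was 0.01. Of all tested loci 26.6% were called higher and 26.3% lower, and the counts of each list below stand beside the same shares. Genes of each list are named by the size of their change and by abundance.

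The chain begins with a linker that xylosyltransferases start and other enzymes extend. Of its 7 genes 3 were called higher and 2 lower, with a median log2 difference of 0.08. Xylt1 had 3.43 and 3.39 FPKM in laminin-positive libraries, against 1.90 and 1.60 FPKM in laminin-negative libraries. Xylt2 and the xylose kinase Fam20b rose by log2 differences of 0.37 and 0.55. Pxylp1, the phosphatase that opposes Fam20b, was lower, at 7.08 and 8.62 FPKM in laminin-positive libraries, against 16.1 and 15.6 FPKM in laminin-negative libraries. The galactosyltransferase B3galt6 was lower at a log2 difference of −0.29, a call lost without any one of the libraries. B4galt7 and B3gat3 were not called, at log2 differences of 0.08 and −0.19.

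The polymerase genes Ext1 and Ext2, whose products join to lengthen the chain, were not called, at log2 differences of 0.08 (SE 0.08) and −0.07 (SE 0.07). Of this list of 5 genes 4 were tested and 1 was called, Extl3, lower at 31.5 and 32.9 FPKM in laminin-positive libraries, against 44.6 and 39.7 FPKM in laminin-negative libraries, and the median log2 difference was −0.09.

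Sulfotransferases and the epimerase Glce set where ligands can bind. Of 16 genes 9 were tested, and 3 were called higher and 5 lower, with a median log2 difference of −0.30. Hs3st1, the 3-O-sulfotransferase known for making antithrombin-binding sites, fell most, with 1.33 and 1.56 FPKM in laminin-positive libraries, against 9.50 and 7.37 FPKM in laminin-negative libraries (log2 difference −1.94, SE 0.13, limma adjusted p = 4.87e-07). Hs6st2, a 6-O-sulfotransferase, had 8.20 and 7.57 FPKM in laminin-positive libraries, against 24.0 and 29.8 FPKM in laminin-negative libraries (log2 difference −1.65, SE 0.11, limma adjusted p = 4.03e-07). Another 3-O-sulfotransferase gene, Hs3st3b1, went the other way, at 10.9 and 11.1 FPKM in laminin-positive libraries, against 5.76 and 5.20 FPKM in laminin-negative libraries. Hs2st1, which sulfates the uronic acid at its 2-O position, was higher at 22.3 and 25.3 FPKM in laminin-positive libraries, against 13.6 and 13.3 FPKM in laminin-negative libraries. Glce was higher by 0.28 and Ndst2 lower by a log2 difference of −0.49, and Hs3st3a1 was not called (−0.07). Hs3st1 and Hs3st3b1, which act at the same position of the sugar, were thus called in opposite directions. The call of Glce was lost without any one of the libraries.

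Genes of enzymes that trim the chain or release glypicans had 2 of 4 tested genes called lower and the others not called, with 6 listed and a median log2 difference of −0.27. The extracellular 6-O-sulfatase gene Sulf2 was abundant in both, at 408 and 416 FPKM in laminin-positive libraries, against 526 and 498 FPKM in laminin-negative libraries. Its log2 difference of −0.31 (SE 0.07, limma adjusted p = 0.00478) was −0.30 without laminin-positive replicate 1, where it was no longer called (adjusted p = 0.0586). Sulf1, at 1.24 and 0.958 FPKM in laminin-positive libraries, against 1.63 and 1.64 FPKM in laminin-negative libraries, was called lower at the threshold (limma adjusted p = 0.0494), and leaving out any library ended the call. The heparanase gene Hpse and Gpld1, a phospholipase that cleaves GPI anchors, were not called (limma adjusted p = 0.142 and 0.0728).

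Proteases that shed syndecans or process glypicans had 3 of 8 tested genes called higher and 2 lower, with 10 listed and a median log2 difference of −0.03. Mmp2 was higher at 222 and 211 FPKM in laminin-positive libraries, against 103 and 99.5 FPKM in laminin-negative libraries. Its activator Mmp14, which also sheds syndecan-1, was lower at 170.4 and 170.8 FPKM in laminin-positive libraries, against 236 and 232 FPKM in laminin-negative libraries. The sheddase gene Adam17 was lower at a log2 difference of −0.47. Pcsk6 and Mmp16 were called higher at 0.38 and 0.35, and both lost the call without laminin-positive replicate 2 or laminin-negative replicate 2, as did Pcsk6 without laminin-positive replicate 1. The convertase genes Furin and Pcsk5 were not called, and Furin had 51.7 and 52.4 FPKM in laminin-positive libraries, against 58.4 and 52.6 FPKM in laminin-negative libraries.

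Partners of the syndecan tail had 4 of 8 tested genes called higher and 3 lower, with 9 listed and a median log2 difference of 0.27. The actin crosslinker gene Actn4 was higher at 128.8 and 129.5 FPKM in laminin-positive libraries, against 59.7 and 59.5 FPKM in laminin-negative libraries. Prkca, the kinase that syndecan-4 binds, and Tiam1, an exchange factor for Rac, were each higher by a log2 difference of 0.67. Partners with PDZ domains went in both directions. Sdcbp (syntenin) was lower, with 58.7 and 61.8 FPKM in laminin-positive libraries, against 70.0 and 87.5 FPKM in laminin-negative libraries. Gipc1 was lower, with 23.7 and 23.0 FPKM in laminin-positive libraries, against 36.5 and 33.9 FPKM in laminin-negative libraries. Pdcd6ip, which works with syntenin in exosome formation, was lower at −0.36, and Cask, another PDZ-domain partner, was not called (0.05). Synj2bp, a PDZ-domain partner outside the naming rule and added after its values were seen, was called higher, at 6.11 and 6.65 FPKM in laminin-positive libraries, against 4.25 and 4.22 FPKM in laminin-negative libraries. The call of Sdcbp was lost without laminin-negative replicate 2.

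Other proteins that carry or can carry heparan sulfate had 3 of 8 tested genes called higher and 3 lower, with 10 listed and a median log2 difference of 0.07. Agrn, the basement membrane proteoglycan agrin, had 43.4 and 41.8 FPKM in laminin-positive libraries, against 15.1 and 13.7 FPKM in laminin-negative libraries. Spock2 (testican-2) had 240.1 and 249.8 FPKM in laminin-positive libraries, against 123 and 104 FPKM in laminin-negative libraries. Hspg2 (perlecan) was higher by a log2 difference of 0.37, a call lost without laminin-positive replicate 1. Cd44, a hyaluronan receptor with a heparan sulfate isoform, fell to 0.540 and 0.668 FPKM in laminin-positive libraries, against 5.52 and 5.22 FPKM in laminin-negative libraries. Col18a1 and the semaphorin coreceptor Nrp1 were lower at −1.04 and −0.90. Tgfbr3 (betaglycan) and Srgn were not called, and Tgfbr3 had 84.4 and 92.2 FPKM in laminin-positive libraries, against 90.8 and 83.5 FPKM in laminin-negative libraries.

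Ligands that bind heparan sulfate had 4 of 11 tested genes called higher and 5 lower, with 14 listed and a median log2 difference of 0.19. Mdk (midkine), a syndecan and glypican ligand, had 422 and 421 FPKM in laminin-positive libraries, against 229 and 222 FPKM in laminin-negative libraries. Its relative Ptn was not called (log2 difference 0.19, limma adjusted p = 0.0700), and neither was Hbegf (0.28). The chemokine gene Cxcl12 fell to 89.8 and 93.8 FPKM in laminin-positive libraries, against 359 and 347 FPKM in laminin-negative libraries. Hgf and Vegfa were lower by log2 differences of −1.73 and −1.28. Pdgfa was higher at 0.98, and without variance shared across genes its call was lost. Under that setting so were the calls of Xylt1, Fam20b, Pxylp1, Extl3, Hs2st1, Glce, Ndst2, Sulf1, Sulf2 and Adam17 from the lists above. The same held for Pcsk6, Mmp16, Prkca, Tiam1, Sdcbp, Pdcd6ip, Spock2 and Hspg2. Dhh, the Hedgehog ligand of the testis, had 3.27 and 2.59 FPKM in laminin-positive libraries, against 0.311 and 0.213 FPKM in laminin-negative libraries. Dhh is also a Sertoli marker, and in the same libraries the Sertoli markers Amh and Cldn11 averaged 5.89 and 16.7 FPKM in laminin-positive cells, against 0.711 and 1.07 FPKM in laminin-negative cells. Of the other Sertoli markers, Clu was called lower, Sox9 and Gata1 were not called, and Rhox5 and Fshr were below the filter. Their part in the Dhh value was not tested.

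**Figure D4:**
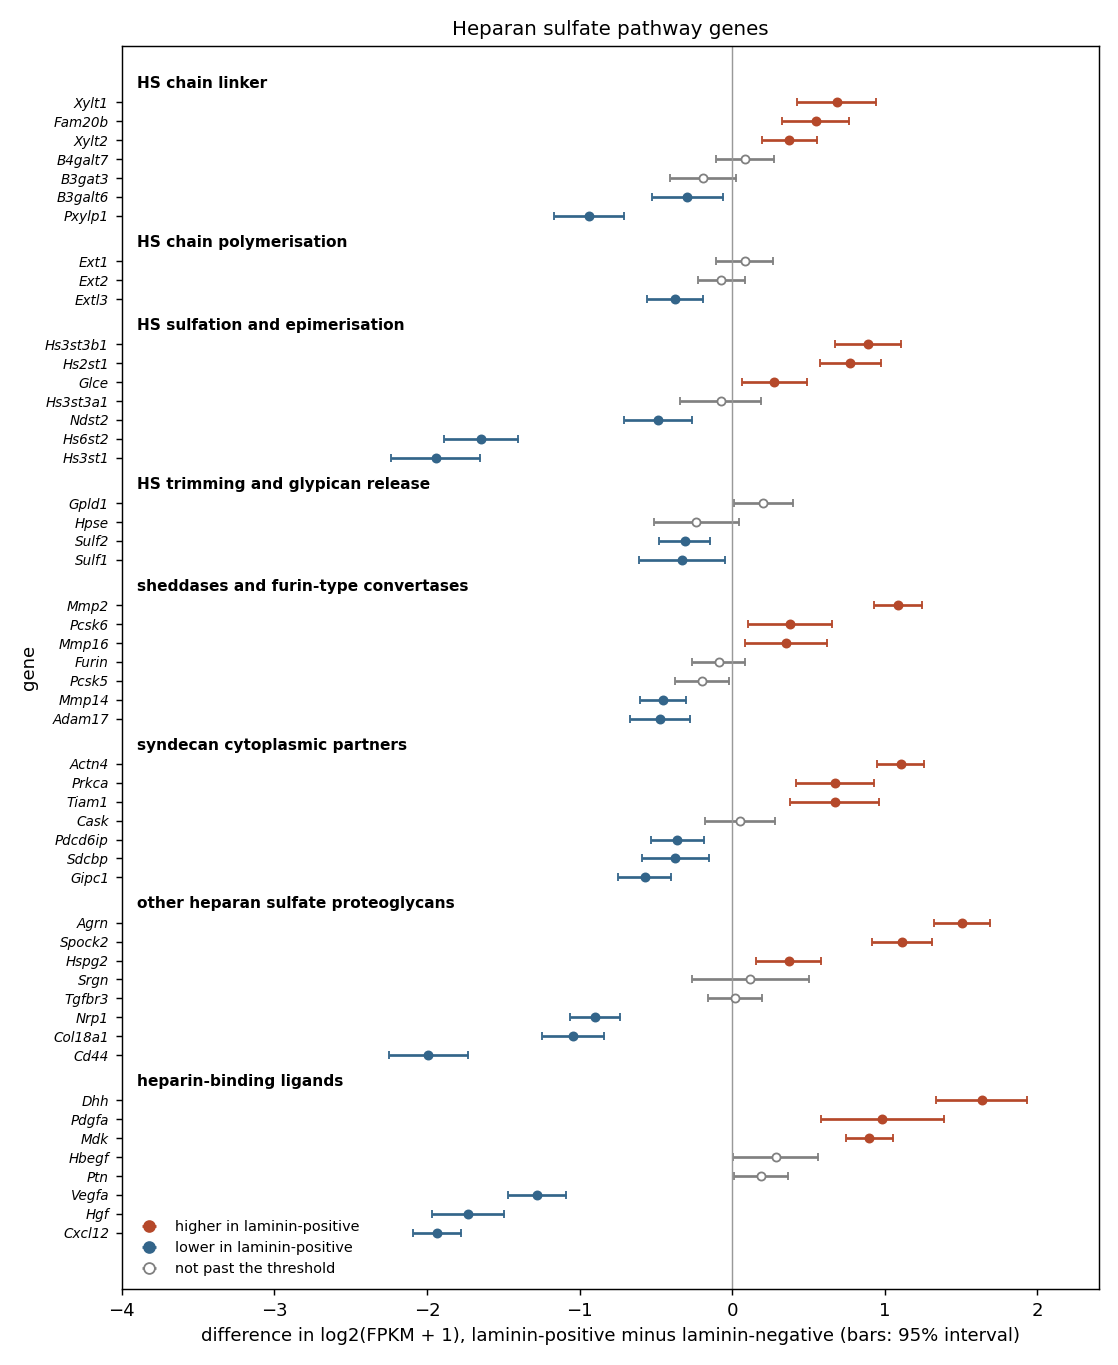
Difference in log2(FPKM + 1) between laminin-positive and laminin-negative cells for the named genes of 8 heparan sulfate lists, with unadjusted 95% intervals. Points right of 0 are higher in laminin-positive cells, filled where the limma adjusted p was under 0.05; the lists hold calls in both directions except polymerisation and trimming, where the calls are lower.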

How the data were processed

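Per the file headers, the authors deposited FPKM (fragments scaled by transcript length and by mapped fragments) for each of 4 libraries, 2 laminin-positive and 2 laminin-negative. Per the submitters' processing notes, TopHat2 2.1.1 and Cufflinks 2.2.1 were used, and the kit for libraries was directional, per the labels' protocols. The labels and headers state no genome build, annotation, strand setting or scaling. Loci of 21201 unique symbols were compared with GENCODE M21 (GRCm38), and 99.6% overlapped, so positions of genes are from that annotation.

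Read depth is unknown. Low FPKM values of genes with a single transcript were multiplied by GENCODE M21 length and compared with whole multiples of a trial step. At most 29.9% lay within 0.1 of a whole multiple for any step tried. The transcript lengths behind the deposited FPKM are not stated, so this check could not give the depth. Replicates shared an identical value above 0 in 1 row for laminin-positive and 0 rows for laminin-negative libraries.

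Loci with at least 1 FPKM in at least 2 libraries were tested on log2(FPKM + 1) with limma 3.58.1 (R 4.3.3) with an intensity trend, two-sided, over all 4 libraries, with no block for replicate number. Benjamini-Hochberg adjustment ran over all tested loci, at a threshold of 0.05. The fit rests on 2 residual and 8.21 prior degrees of freedom. The fit was tested on simulated data. A first simulation, with spread smoothed over genes of like level, recovered the changed genes but gave more false calls than the nominal rate and failed its preset limit, with nearly all of the false calls among the most abundant genes. The limit was then applied to a second simulation, drawn around limma's own fitted trend, which passed, as did another with each gene's own residual spread. The second shares limma's assumptions and was chosen after the first failed. Calls at the threshold, and those of abundant genes (Gpc1 and Gpc3 among the members), are therefore less certain than their adjusted p states; Gpc1 and Gpc3 were also called with no variance shared across genes. Fold values are ratios of mean FPKM. The 13 alternatives cover pseudocount, filters, trend, shared variance, scaling, a block and leaving out each library.

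All members are named. Of each pathway list, up to 3 called genes with the largest rise, up to 3 with the largest fall and up to 2 abundant genes without a call are named. Members, lists and rules were chosen with earlier results of these data known. Adgre1 and Jchain were matched by older symbols, Hbb-bt was not matched, and Insl3 shares its row with Jak3.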

Additional observations from a re-analysis of the deposited data

How the results depend on the processing

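Comparing the 8 called members with their call under each alternative, 92 comparisons kept the call and its direction, 12 lost it and none reversed. Gpc6 stayed uncalled throughout, and the sign of its estimate turned in 2 alternatives, to −0.02 with quantile normalization and −0.01 without laminin-negative replicate 2. Of the 12, 10 were those of Sdc1, and the others were Gpc4 (adjusted p = 0.135) and Sdc2 (adjusted p = 0.0549), both without variance shared across genes. That setting left 4 members called higher and 1 called lower, and called 1346 of all tested loci higher and 1211 lower, against 3288 and 3245 with shared variance. It estimates each variance from 2 residual degrees of freedom. Leaving out a library left 5 members higher and 2 lower in each case, with 2587 to 3254 of all loci higher and 2610 to 3064 lower. In those fits the lone library of a group is assumed to vary like the others. The labels do not say that equal replicate numbers mark a shared animal or day. Same-numbered deviations correlated at 0.01, and with the replicate block 6 members were higher and 2 lower, with 3376 and 3343 of all loci. For the named pathway genes 422 comparisons kept a call and 52 lost one, while for those not called 9 gained one, and in 11 an uncalled estimate changed sign. Depth is unknown, so no counting error can be given for genes of a few FPKM such as Gpc2, or for Gpc5.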
